A study of Homo sapiens with 18 samples.

Results

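Cytokine messages in monocytes are short-lived, and a small set of RNA-binding proteins sets how fast they are removed. This account covers 10 genes for such proteins, found by matching their symbols to the Ensembl identifiers of the count table. All 10 were present, among 63677 genes in the table, and all 10 passed the filter on low counts together with 16678 genes in all. ZFP36, ZFP36L1 and ZFP36L2 encode zinc finger proteins that bind AU-rich elements in the 3' untranslated region (3' UTR) of cytokine mRNAs and recruit the deadenylase that shortens the poly(A) tail. ZC3H12A and ZC3H12C encode Regnase-1 and Regnase-3, the first an endoribonuclease that cuts stem-loops in inflammatory mRNAs. RC3H1 and RC3H2 encode the Roquin proteins, which bind stem-loops in TNF and other mRNAs, while ELAVL1 (HuR) mostly stabilises AU-rich mRNAs, KHSRP (KSRP) promotes their decay, and HNRNPD (AUF1) binds the same elements and can do either.

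The cells were THP-1, an established human monocytic leukaemia line. They were transfected with an siRNA against TRAFD1 (KD) or a non-targeting scrambled siRNA (SCR), each at 25 nM, or received no siRNA (WT), and 72 h later were given lipopolysaccharide (LPS, a bacterial cell wall component) at 10 ng/ml or medium alone for 4 h. One description calls WT cells untreated and another says that they received the transfection mix, and the labels do not settle whether an siRNA condition differs from WT by its siRNA alone or also by the reagent. The 6 groups held 3 libraries each, with numbers 1 to 3 for unstimulated and 4 to 6 for LPS libraries, and total counts ran from 8206023 to 22344279 per library. Nothing in the labels says more about the libraries than that cells were grown in triplicate, so p-values measure the spread between these libraries, which may in part be technical. All 8 monocyte markers examined were detected (FCGR1A, an Fc receptor, at 249 to 342 CPM, the unit explained below). Among markers of other cell types, HBB and GATA1 (erythroid) were at 0 in every library, and COL1A1 (fibroblast) reached at most 2.94 CPM. TRAFD1 averaged 8.67 CPM in unstimulated KD against 23.7 in SCR (adjusted p = 0.0277), and 14.5 against 22.7 with LPS (adjusted p = 0.262).

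Levels are given as CPM, the counts of a gene for each 1000000 counts of its library after TMM scaling of the totals. The assay reads 1 fragment near the end of each polyadenylated transcript, so levels can be set side by side between genes without a correction for length, as far as each gene's transcripts end within the last 500 bases that the authors counted. Differences are log2 fold changes with their standard error (SE), from edgeR's quasi-likelihood test fitted to all 18 libraries, and a gene is called where its p-value, adjusted over the 16678 genes tested (Benjamini-Hochberg), is under 0.05. For a single gene, an exact permutation test of 3 libraries against 3 cannot give a p below 0.1. Groups whose libraries do not overlap only reach that limit. The share of all genes with such separate groups was not computed, so statements on overlap below are descriptions of the libraries.

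Some of the 10 proteins bind AU-rich elements, and the mRNAs of several of the 10 genes carry such an element themselves. The AU-rich nonamer TTATTTATT (written as DNA, with T for U), the preferred site of the ZFP36 family, was searched on the transcript strand in the 3' UTR of the GENCODE transcripts on GRCh37. Only the Ensembl canonical transcript of each protein-coding gene was searched, so other transcripts of a gene are not covered. The nonamer was found in 6 of the 10 genes, and in 8.48% of 19085 whole 3' UTRs. The median length was 1068 bases for all of these and 1919.5 bases for the 10 genes, and a longer stretch has more places for a match. It occurred once each in ZFP36, ZFP36L1, ZFP36L2, ZC3H12C and ELAVL1, at 2 places in RC3H2, and in overlapping copies at 5 positions of TNF, a classic target of the family. These letters were not found in the 3' UTRs of ZC3H12A, RC3H1, KHSRP and HNRNPD. Of 19215 transcripts, 2.77% held the nonamer in their last 500 bases, and among the 10 genes ZFP36 and ZFP36L1 did. A match is a description of the letters and not evidence of binding. The windows below show each member's sites and, for comparison, the first and last of TNF, 5' to 3' on the transcript strand with the nonamer in capitals.
ZFP36, chr19:39899838-39899862, plus strand: tgacgactTTATTTATTctaatatg
ZFP36L1, chr14:69254796-69254820, minus strand: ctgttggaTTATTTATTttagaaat
ZFP36L2, chr2:43450589-43450613, minus strand: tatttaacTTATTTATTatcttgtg
ZC3H12C, chr11:110040884-110040908, plus strand: tacacccaTTATTTATTagagatat
RC3H2, chr9:125611480-125611504, minus strand: tagttaacTTATTTATTtctatttt
RC3H2, chr9:125609983-125610007, minus strand: aagacattTTATTTATTtcactctg
ELAVL1, chr19:8026714-8026738, minus strand: ttatgtatTTATTTATTgaagtgtg
TNF, chr6:31545769-31545793, plus strand: acttgtgaTTATTTATTatttattt
TNF, chr6:31545791-31545815, plus strand: tttattatTTATTTATTtacagatg

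The 10 genes spanned a wide range of levels. In unstimulated WT cells the order of mean CPM was KHSRP (526), HNRNPD (256), ZFP36L2 (245), ELAVL1 (159), RC3H2 (72.9), RC3H1 (47.2), ZFP36L1 (30.1), ZC3H12A (17.4), ZC3H12C (6.49) and ZFP36 (6.23). HNRNPD and ZFP36L2 overlapped between their libraries, as did ZC3H12C and ZFP36, and every other pair of neighbours in that order was separate. With LPS, ZC3H12A moved from the eighth place to the fourth in WT, at 213 CPM, where its libraries overlapped those of ZFP36L2 at 222 CPM. ZFP36 rested on the fewest reads, from 69 to 540 counts per library, and KHSRP on the most, from 3410 to 13188.

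**Figure D1:**
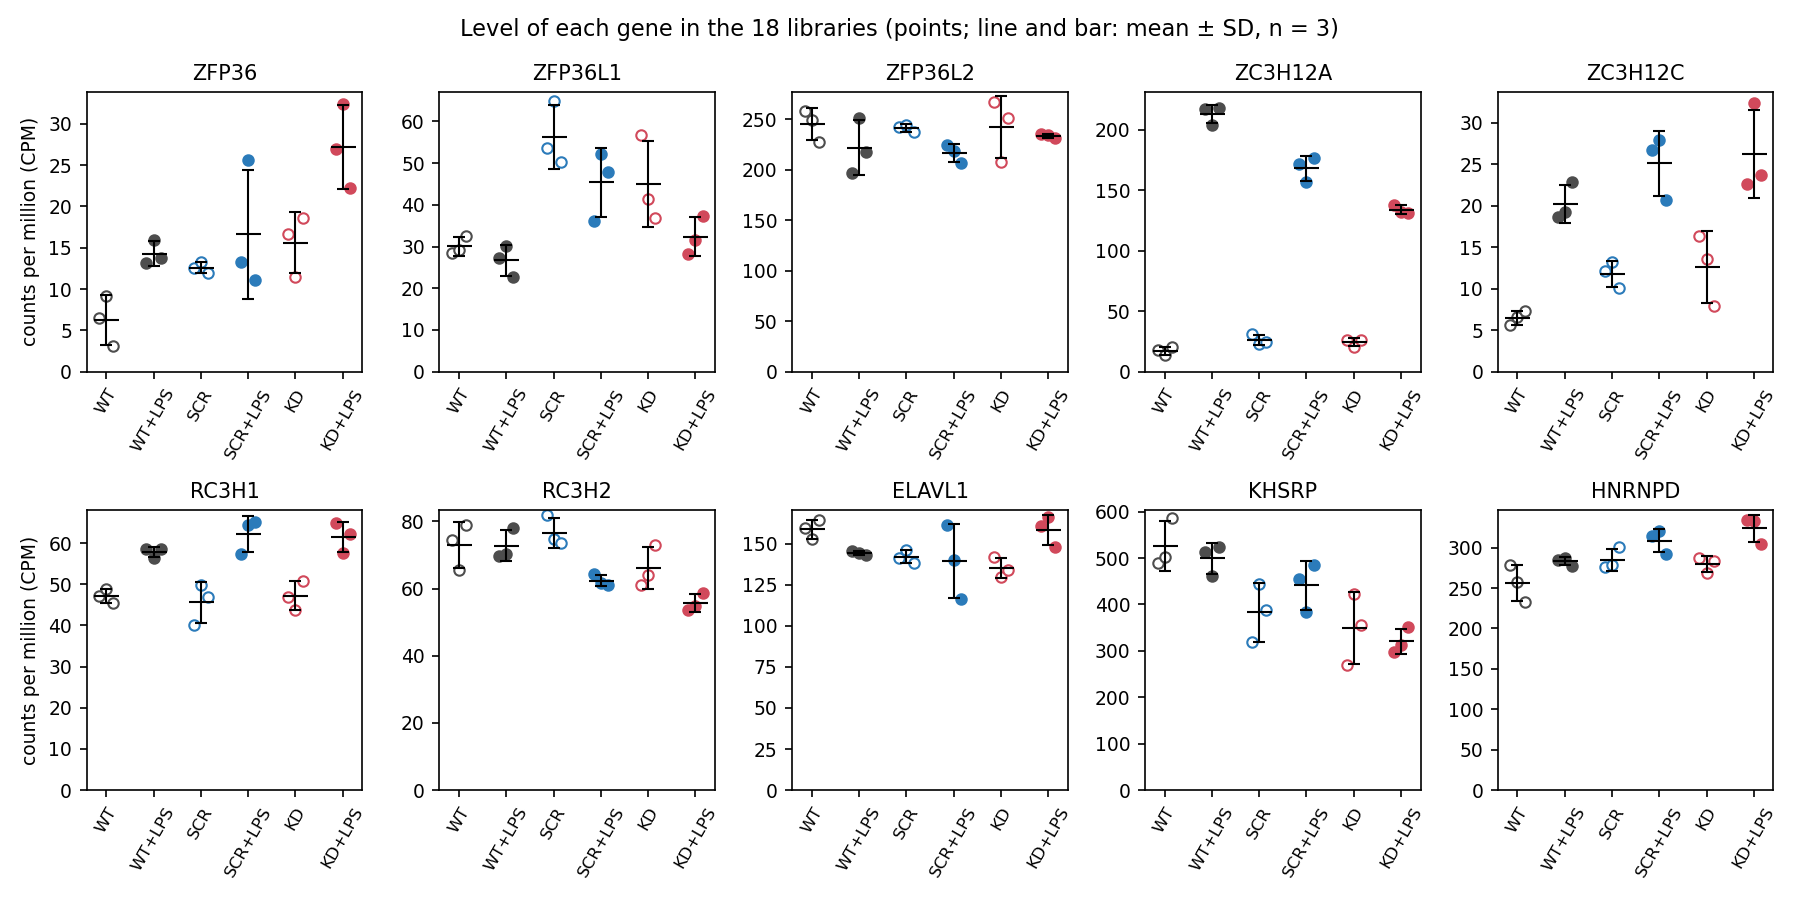
Level of each of the 10 genes in CPM (vertical axes, each from 0) in the 18 libraries. Open points are unstimulated and filled points LPS libraries of WT (grey), SCR (blue) and KD (red), and the line and bar give mean ± SD (n = 3); the LPS libraries of ZC3H12A lie between 131 and 218 CPM, far above its unstimulated ones at 14.0 to 30.8.

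The first comparison asked how these genes respond to LPS within each condition. In WT, 3 of the 10 rose (background: 7.01% of the genes tested were higher) and 0 fell (7.26% lower). In SCR, 3 rose (8.64% higher) and 1 fell (8.56% lower), and in KD 3 rose (6.41% higher) and 0 fell (5.05% lower). ZC3H12A and ZC3H12C rose in all 3 conditions. The median log2 fold change of the 10 was 0.07 (WT), 0.16 (SCR) and 0.22 (KD), against medians over all genes tested of -0.03, -0.03 and 0.00.

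ZC3H12A (ENSG00000163874, chr1:37940181-37949978, plus strand) showed the largest LPS response of the 10 in each condition. Its WT libraries held 17.7, 14.0 and 20.6 CPM without LPS and 217, 204 and 218 with LPS. In SCR the values were 30.8, 23.0 and 24.4 CPM without LPS and 172, 156 and 176 with it. KD libraries held 26.0, 20.7 and 26.2 CPM without LPS and 138, 132 and 131 with it. Without LPS the highest level was in an SCR library and the lowest in a WT library, whereas with LPS all 3 WT libraries lay above all SCR libraries, which in turn lay above all KD libraries. The rise was 12.1-fold in WT (log2 fold change 3.60 ± 0.14 SE, adjusted p = 5.92e-14 by edgeR), 6.41-fold in SCR (2.68 ± 0.13, adjusted p = 8.48e-12) and 5.49-fold in KD (2.46 ± 0.13, adjusted p = 3.71e-11). These calls held in every alternative fit and without any single library.

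The response of ZC3H12A was itself compared between conditions, as the difference between log2 fold changes. It was smaller in KD than in WT by 1.14 (log2 difference -1.14 ± 0.18 SE, adjusted p = 0.00502 by edgeR), a call that held in all 12 fits that left out 1 library. Of the genes tested, 0.3% had a lower response in KD than in WT. SCR also responded less than WT, with a difference of -0.92 ± 0.18 (adjusted p = 0.0329), in a comparison where 0.216% of genes were lower. That call was kept in 3 of the 12 fits without 1 library, those without WT replicate 2, WT replicate 3 or SCR replicate 2, and the differences over the 12 ran from -1.06 to -0.77. Both comparisons use the same WT libraries. Between KD and SCR the LPS response of ZC3H12A differed by -0.22 (95% interval -0.60 to 0.15, adjusted p = 0.783), and 0 of the 10 genes were called there, with 0% of all genes (by edgeR, 1274 genes and 0 of the 10 at an unadjusted p under 0.05, and 0 genes by DESeq2).

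ZC3H12C (ENSG00000149289, chr11:109964118-110042566, plus strand) was the other gene of the Regnase group. Its levels were 5.65, 6.54 and 7.29 CPM in WT and 18.7, 19.2 and 22.9 in WT with LPS. In SCR they were 12.1, 13.2 and 10.1 CPM without and 26.7, 27.9 and 20.7 with LPS, and in KD 16.4, 13.6 and 7.93 without and 22.6, 32.4 and 23.8 with LPS. The stimulated libraries were above the unstimulated ones of the same condition in every case. The rise was 3.11-fold in WT (log2 1.64 ± 0.22 SE, adjusted p = 1.54e-05 by edgeR), 2.12-fold in SCR (1.09 ± 0.21, adjusted p = 0.00116) and 2.08-fold in KD (1.05 ± 0.21, adjusted p = 0.00195), and these calls too held in every fit. The differences between its responses, -0.55 ± 0.30 for SCR against WT and -0.58 ± 0.30 for KD against WT, did not pass the test (adjusted p = 0.554 and 0.359). The end of ZC3H12C overlaps a transcript of RDX on the opposite strand, and the strand setting of the counting is not given in the sources used here. RDX held 100 to 148 CPM and its log2 change under LPS was 0.34 (WT), 0.40 (SCR) and 0.15 (KD), so its part in the ZC3H12C values cannot be told apart.

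Among the AU-rich element binders, ZFP36 (tristetraprolin, ENSG00000128016, chr19:39897487-39900052, plus strand) was low and variable. WT libraries held 6.44, 9.17 and 3.07 CPM without LPS and 13.1, 16.0 and 13.7 with LPS. SCR libraries held 12.5, 13.2 and 11.9 CPM and, with LPS, 13.2, 25.6 and 11.1, while KD libraries held 16.7, 11.5 and 18.7 and, with LPS, 26.9, 32.4 and 22.3. The stimulated and unstimulated libraries were separate in WT and in KD and overlapped in SCR, where 1 library, replicate 5, stood above the other two.

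ZFP36 rose 2.37-fold in WT (log2 1.25 ± 0.32 SE, adjusted p = 0.00951 by edgeR). Without WT replicate 3, its lowest unstimulated library, the value was 0.89 (adjusted p = 0.0649). Its log2 change was 0.80 ± 0.29 in KD (adjusted p = 0.0813) and 0.42 ± 0.30 in SCR (adjusted p = 0.373), the latter -0.052 without SCR replicate 5. ZFP36 is known as an early gene whose mRNA is itself unstable, and the data hold the 4 h time only.

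ZFP36L1 (ENSG00000185650, chr14:69254377-69262970, minus strand), a close relative of ZFP36, did not rise. Its values under LPS were -0.17 ± 0.17 (log2) in WT, -0.30 ± 0.16 in SCR and -0.47 ± 0.17 in KD (adjusted p = 0.571, 0.227 and 0.0692 by edgeR). ZFP36L2 (ENSG00000152518, chr2:43449541-43453745, minus strand) stayed between 197 and 267 CPM in all 18 libraries, with log2 values of -0.14, -0.16 and -0.05 in the 3 conditions, and was called in no comparison. Its end overlaps an antisense transcript, so that the same doubt about strand applies. In unstimulated WT it was the most abundant of the 3 family members, above ZFP36L1 and ZFP36 in every library.

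The Roquin genes went in opposite directions in SCR. RC3H1 (ENSG00000135870, chr1:173900222-173991495, minus strand) held 40.2, 49.8 and 46.9 CPM in SCR and 57.2, 64.5 and 65.0 with LPS. In KD it held 47.0, 43.9 and 50.9 CPM without and 64.8, 57.5 and 62.2 with LPS, and in WT 47.3, 48.9 and 45.5 without and 58.6, 56.3 and 58.6 with LPS. All 3 conditions had separate groups, higher with LPS. The rise was 1.37-fold in SCR (log2 0.45 ± 0.10 SE, adjusted p = 0.00389 by edgeR) and 1.30-fold in KD (0.38 ± 0.10, adjusted p = 0.0189). In WT the value was 0.29 ± 0.10 and missed the threshold (adjusted p = 0.0623). The KD call was lost without KD replicate 2, 4 or 6 (adjusted p = 0.0759, 0.0768 and 0.0563). It was kept in 2 of the 4 fits that changed the processing, where the adjusted p reached 0.106.

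RC3H2 (ENSG00000056586, chr9:125606835-125667638, minus strand) held 81.8, 74.6 and 73.5 CPM in SCR and 64.3, 61.7 and 61.1 with LPS, again without overlap. It fell by 0.30 on the log2 scale (SE 0.10, adjusted p = 0.0447 by edgeR). That call was close to the threshold and held in 0 of 6 fits without 1 library, with adjusted p from 0.0643 to 0.174. In KD the value was -0.25 ± 0.10 (adjusted p = 0.121) and in WT -0.01 ± 0.10.

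The 3 genes with other roles did not pass the test under LPS. ELAVL1 (ENSG00000066044, chr19:8023457-8070543, minus strand), the stabiliser, ranged from 116 to 166 CPM over all libraries, with log2 values of -0.14 (WT), -0.03 (SCR) and 0.23 (KD). HNRNPD (ENSG00000138668, chr4:83273651-83295656, minus strand) ranged from 233 to 334 CPM, with values of 0.14, 0.12 and 0.21. KHSRP (ENSG00000088247, chr19:6413113-6424822, minus strand) gave -0.08, 0.20 and -0.12. In KD the LPS libraries of ELAVL1 and HNRNPD lay above the unstimulated ones (adjusted p = 0.143 and 0.099 by edgeR). In WT the LPS libraries of ELAVL1 lay below the unstimulated ones (adjusted p = 0.398). Processed pseudogenes named for KHSRP and HNRNPD held at most 2.06 CPM in any library, far below the genes themselves.

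**Figure D2:**
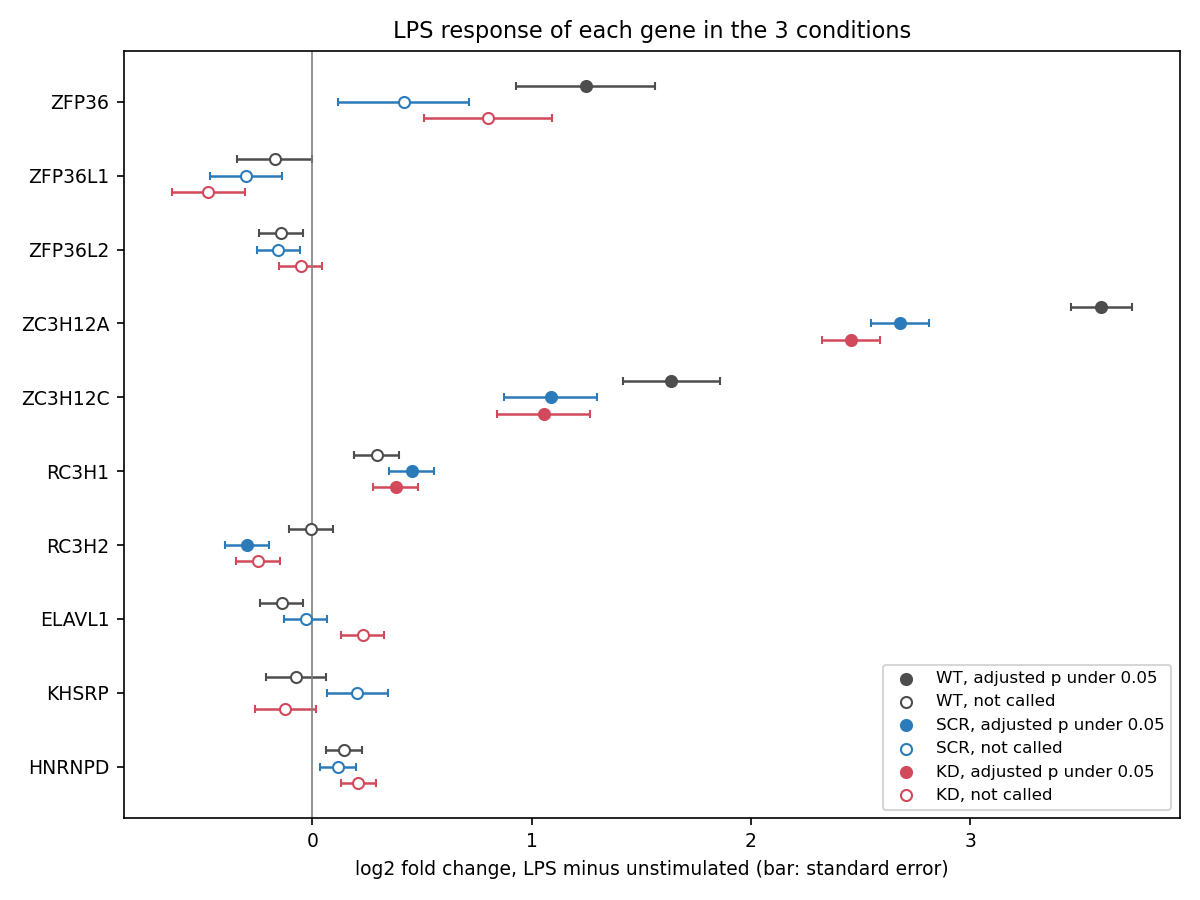
LPS response of the 10 genes (rows) as log2 fold change, LPS minus unstimulated, with SE bars, in WT (grey), SCR (blue) and KD (red); filled points have an adjusted p under 0.05. ZC3H12A lies at 3.60, 2.68 and 2.46, and the points of ZFP36L2, ELAVL1, KHSRP and HNRNPD are open and lie near 0.

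A second comparison set SCR against WT, the controls with and without an siRNA. Without LPS, 3 of the 10 genes were higher in SCR (1.78% of all genes were higher) and 0 were lower (1.45%). ZFP36L1 had the smallest adjusted p of the 3. Its libraries held 28.5, 29.1 and 32.6 CPM in WT and 53.5, 64.9 and 50.4 in SCR. Every SCR library was above every WT library, and the level was 1.87-fold higher (log2 0.90 ± 0.17 SE, adjusted p = 0.00405 by edgeR). This call held in all 6 fits without 1 library.

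ZC3H12A was 1.49-fold higher in unstimulated SCR than in WT (log2 0.58 ± 0.13 SE, adjusted p = 0.0201 by edgeR) and ZC3H12C 1.81-fold higher (0.86 ± 0.22, adjusted p = 0.0357). Their groups, given above, did not overlap. Neither call was firm. That of ZC3H12A was lost without WT replicate 1, WT replicate 2 or SCR replicate 1 (adjusted p = 0.06, 0.0713 and 0.152), and that of ZC3H12C without any one of the 6 libraries, with adjusted p from 0.0517 to 0.134. ZFP36 was at 1.06 ± 0.31 (log2, adjusted p = 0.0676) and KHSRP at -0.46 ± 0.14 (adjusted p = 0.0749), and both were called by DESeq2 (adjusted p = 0.0218 and 0.0427).

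With LPS, 0 of the 10 genes were called between SCR and WT, where 0.114% of all genes were (by edgeR, 3 of the 10 and 2285 genes at an unadjusted p under 0.05, and 1 of the 10 and 203 genes by DESeq2). ZFP36L1 was nearest, with 27.1, 30.2 and 22.7 CPM in WT and 36.1, 52.2 and 47.8 in SCR, all separate. Its difference was 0.77 ± 0.17 (log2, adjusted p = 0.0739 by edgeR). Libraries with the same number deviated together in this pair of groups, and with the replicate number as a block ZFP36L1 was called (0.76, adjusted p = 0.034). ZC3H12A was at -0.34 ± 0.12 (adjusted p = 0.244), in the opposite direction to its value without LPS.

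KD was also set against WT. Without LPS, 4 of the 10 were higher in KD (5.85% of all genes) and 1 was lower (5.85%). ZFP36 was 2.60-fold higher (log2 1.38 ± 0.31 SE, adjusted p = 0.00654 by edgeR), ZC3H12C 1.95-fold (0.96 ± 0.22, adjusted p = 0.00722), ZFP36L1 higher by 0.58 ± 0.17 (log2, adjusted p = 0.026) and ZC3H12A 1.38-fold (0.47 ± 0.13, adjusted p = 0.0256). The KD libraries of each lay above the WT libraries, with ZFP36L1 at 56.7, 41.5 and 36.8 CPM. When the model held only these 6 libraries, 0 of the 10 were called. The calls of ZFP36L1 and ZC3H12A were each kept in 2 of 6 fits without 1 library, with log2 values from 0.38 to 0.71 and from 0.34 to 0.61, and that of KHSRP was lost without WT replicate 3 (adjusted p = 0.0569).

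KHSRP, the decay-promoting protein of the AU-rich group, was the gene lower in KD. WT libraries held 489, 502 and 586 CPM and KD libraries 269, 423 and 356. With LPS the WT values were 513, 462 and 523 CPM and the KD values 298, 313 and 351. In both states each WT library was above each KD library. KHSRP fell by 0.59 on the log2 scale without LPS (SE 0.14, adjusted p = 0.00851 by edgeR) and by 0.64 with LPS (SE 0.14, adjusted p = 0.00802). The SCR libraries held 318, 444 and 387 CPM without LPS, where they overlapped the KD libraries and lay below the WT libraries, and 456, 383 and 486 with LPS, where they overlapped the WT libraries and lay above the KD libraries.

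With LPS, 1 gene was higher in KD than in WT (6.29% of all genes) and 3 were lower (4.55%). TRAFD1 itself was not called between these groups (log2 -0.23 ± 0.23 SE, adjusted p = 0.563 by edgeR). It averaged 14.5 CPM in KD and 17.0 in WT with LPS, and the libraries overlapped. Without LPS it was lower in KD than in WT (log2 -1.23 ± 0.23, adjusted p = 0.00156). ZC3H12A was lower by 37.3% (log2 -0.67 ± 0.12 SE, adjusted p = 0.00293 by edgeR), although it had been higher in KD without LPS. This call held in all 6 fits without 1 library. RC3H2 was lower by 0.39 on the log2 scale (log2 -0.39 ± 0.10, adjusted p = 0.0192), with 53.5, 54.7 and 58.7 CPM in KD and 69.8, 70.3 and 78.1 in WT. ZFP36 was 1.91-fold higher (0.93 ± 0.30, adjusted p = 0.0471). The ZFP36 call held in 0 of 6 fits without 1 library (adjusted p from 0.0548 to 0.176), and that of RC3H2 was lost without WT replicate 6, KD replicate 4 or KD replicate 5 (adjusted p = 0.121, 0.072 and 0.0811). Without WT replicate 6 the KHSRP value had an adjusted p of 0.0503.

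**Figure D3:**
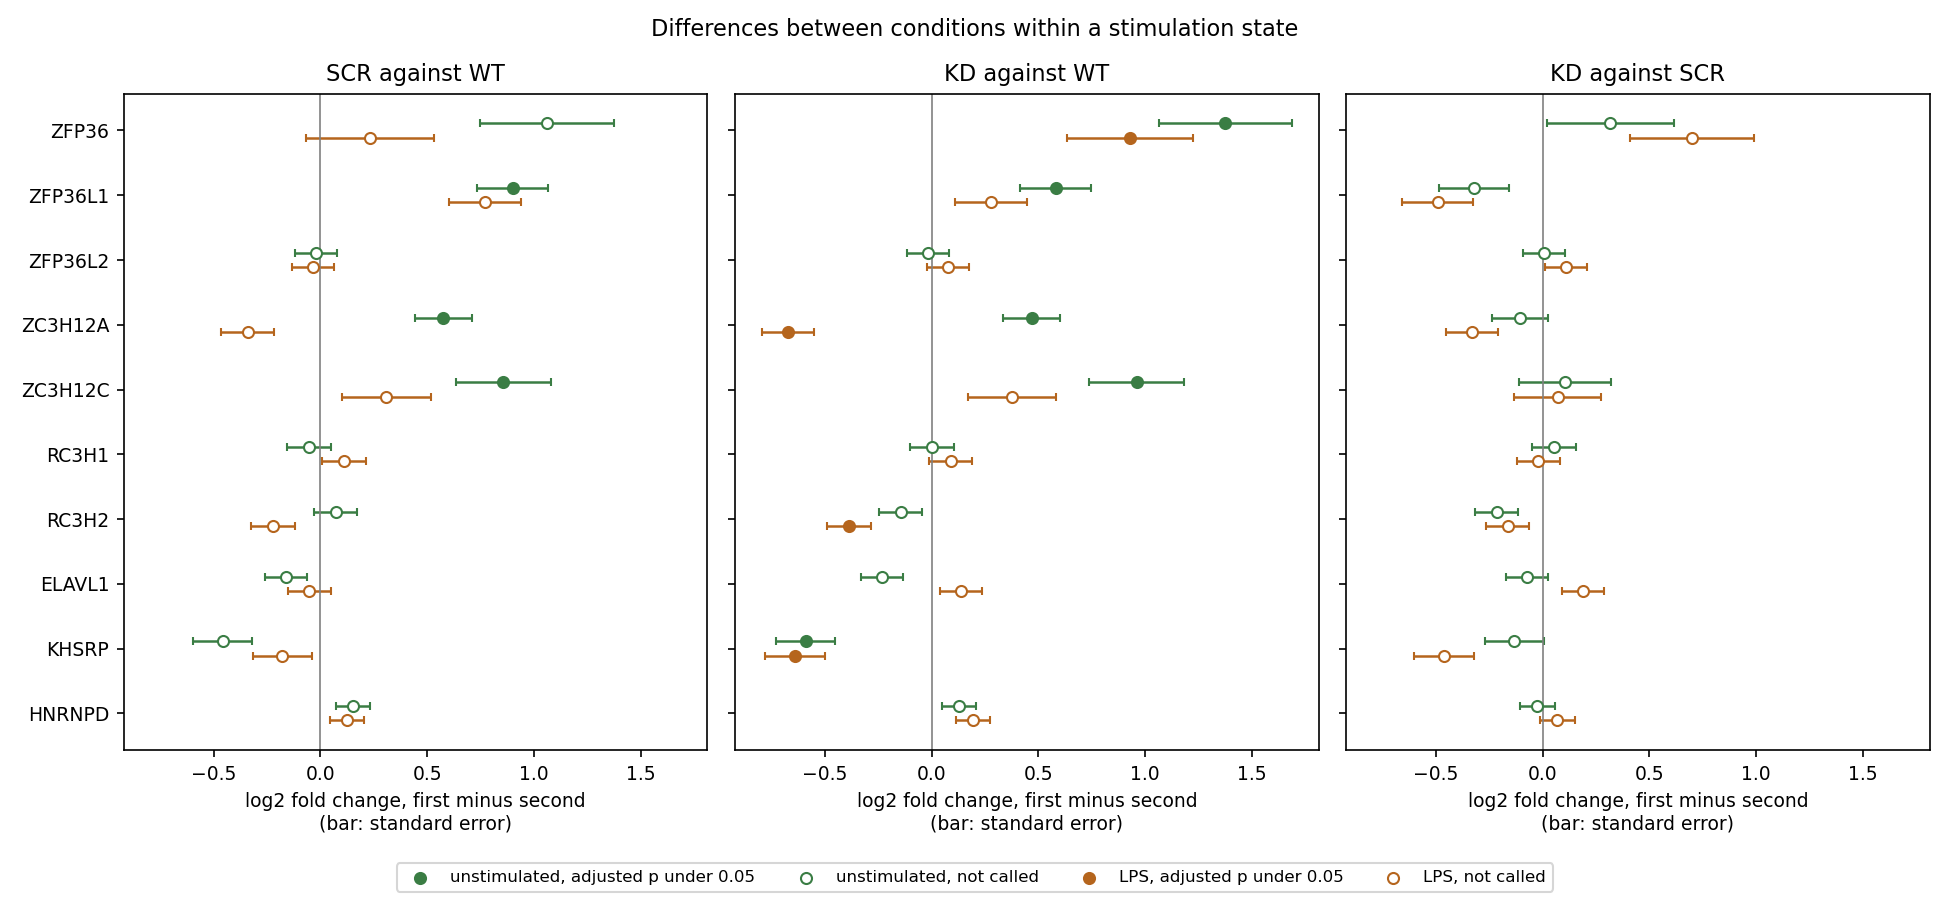
Differences between conditions for the 10 genes (rows), as log2 fold change of the first against the second condition named above each panel, with SE bars, unstimulated (green) and with LPS (brown); filled points have an adjusted p under 0.05. In the KD against WT panel ZC3H12A is at 0.47 without LPS and at -0.67 with LPS, and the KD against SCR panel has open points only.

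The comparison that isolates the TRAFD1 siRNA from the control siRNA is KD against SCR. Without LPS, 0 of the 10 genes were called, with 0.066% of all genes called (by edgeR, 1 of the 10 and 2107 genes at an unadjusted p under 0.05, and 0 of the 10 and 262 genes by DESeq2). With LPS, 0 of the 10 and 0% of all genes were called (4 of the 10 and 1963 genes at an unadjusted p under 0.05, and 0 of the 10 and 167 genes by DESeq2). The 95% intervals of the differences ran from -0.66 to 0.94 over the 10 genes without LPS and from -0.84 to 1.31 with LPS. The lowest bounds were those of ZFP36L1 and the highest those of ZFP36, so for these genes changes up to that size in that direction are not excluded. The intervals of the other genes lay within these bounds, that of RC3H1 with LPS at -0.23 to 0.19.

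The 4 genes at an unadjusted p under 0.05 with LPS were KHSRP (log2 -0.46, 95% interval -0.75 to -0.17), ZFP36L1 (-0.49, -0.84 to -0.14), ZC3H12A (-0.33, -0.59 to -0.07) and ZFP36 (0.70, 0.09 to 1.31), with adjusted p of 0.217, 0.253, 0.297 and 0.354 by edgeR. The KD and SCR libraries did not overlap for KHSRP and ZC3H12A and overlapped for ZFP36L1 and ZFP36. They did not overlap for ZFP36L2 and RC3H2 either, whose unadjusted p was 0.277 and 0.12 by edgeR. KHSRP was called where the model held only these 6 libraries (adjusted p = 0.0445). The narrowest intervals belonged to HNRNPD, from -0.10 to 0.24 with LPS and -0.19 to 0.14 without. TRAFD1 itself differed between KD and SCR by -1.45 (log2) without LPS and by -0.65 with LPS, and the difference between these values did not pass the test (adjusted p = 0.612 by edgeR).

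The mRNAs on which these proteins act were described with a list of 30 inflammatory transcripts written from general knowledge, of which 28 were matched and 22 tested. The list was chosen with earlier results of these data known, so its counts are descriptions and not a test of the list. IL6, IL10, IL12B, CSF2, CSF3 and LIF were too low to test, with at most 15 counts in any library, and CCL3 and CCL4 were not matched. With LPS, 19 of the 22 rose in WT, 18 rose in SCR and 19 rose in KD, while 0 fell. Of all genes tested, 7.01%, 8.64% and 6.41% rose and 7.26%, 8.56% and 5.05% fell. The median log2 change of the 22 was 3.20 (WT), 2.65 (SCR) and 2.55 (KD). In WT, TNF rose from a mean of 15.9 to 141 CPM, CXCL10, an interferon-inducible chemokine, from 2.26 to 304, and ICAM1, an adhesion molecule, from 2.39 to 47.7. VEGFA and MYC were called in none of the 3 conditions.

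These transcripts also differed between the siRNA conditions and WT before LPS. In unstimulated SCR, 8 of 22 were higher than in WT (TNF, CXCL1, CXCL10, IER3, NFKBIZ, TNFAIP3, ICAM1 and BCL3) and 0 lower. Of all genes tested, 1.78% were higher and 1.45% lower. In unstimulated KD, 9 of 22 were higher than in WT and 0 lower (5.85% of all genes in each direction). TNF averaged 15.9 CPM in WT, 43.3 in SCR and 43.2 in KD, whereas with LPS it averaged 141, 144 and 114. The LPS response was smaller in SCR than in WT for TNF (log2 difference -1.42, adjusted p = 0.0021 by edgeR) and CXCL10 (-2.07, adjusted p = 0.0074), and smaller in KD than in WT for TNF (-1.76, adjusted p = 0.000101), ICAM1 (-1.63, adjusted p = 0.0217) and TNFAIP3 (-1.05, adjusted p = 0.0457). The comparisons share the WT libraries. Of all genes tested, 0.216% had a lower response in SCR than in WT and 0.3% in KD than in WT. In KD against SCR, 0 of the 22 were called in either state or for the LPS response. Of all genes, 0.066% were called there without LPS, 0% with LPS and 0% for the LPS response, so these counts do not set the list apart.

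**Figure D4:**
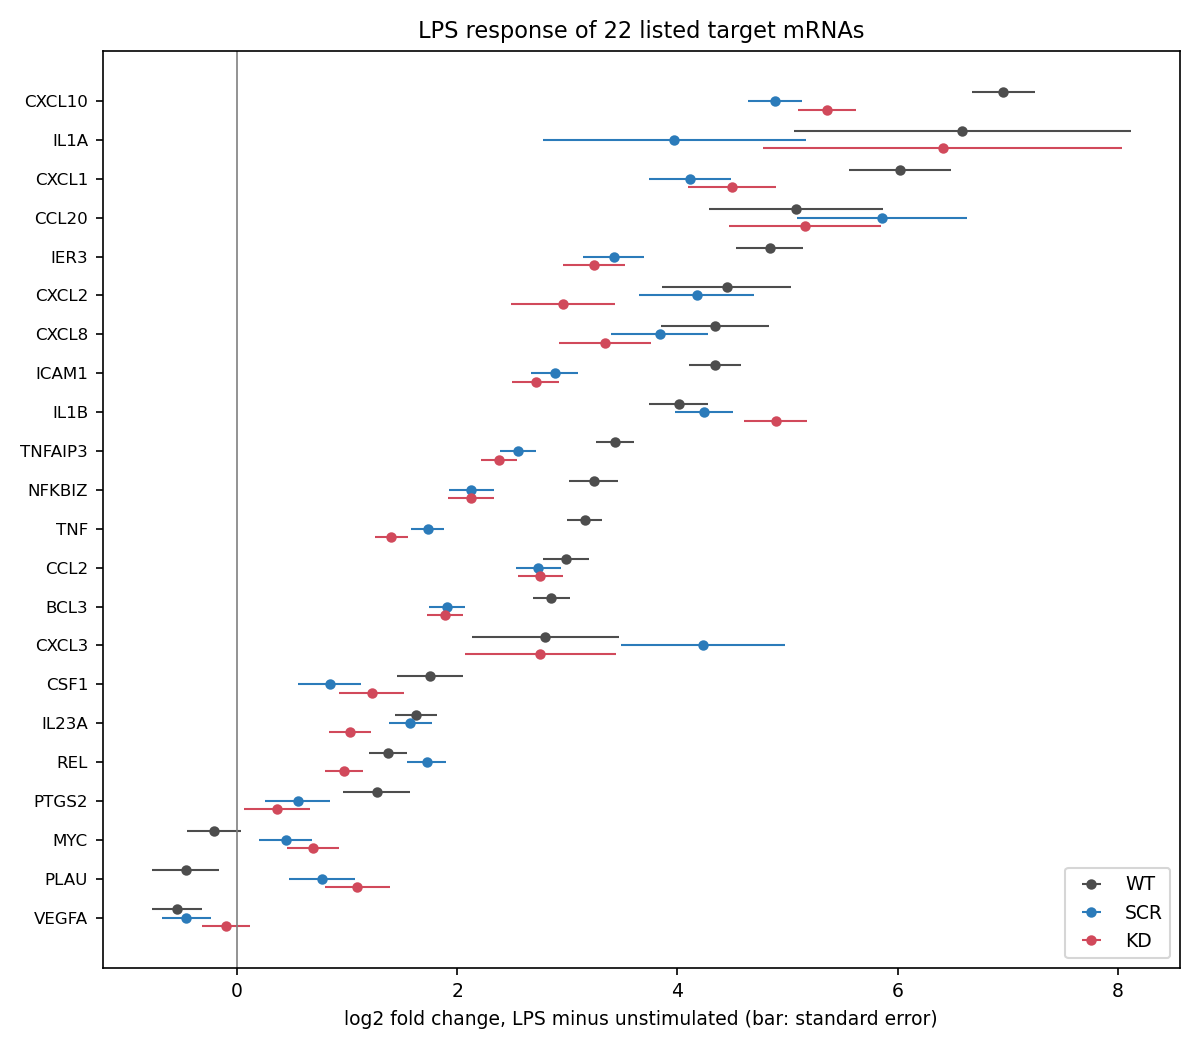
LPS response of the 22 listed inflammatory mRNAs that were tested (rows, in the order of their WT value), as log2 fold change with SE bars, in WT (grey), SCR (blue) and KD (red). TNF lies at 3.16 (WT), 1.73 (SCR) and 1.40 (KD), and 19 of the 22 are called higher in WT (7.01% of all genes tested).

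The decay machinery that such proteins recruit was described with lists written from general knowledge, also with earlier results of these data known. Their counts of called genes can be read against the shares over all genes tested under LPS, 7.01% higher and 7.26% lower in WT, 8.64% and 8.56% for SCR, and 6.41% and 5.05% for KD. Of 18 deadenylation genes tested, 1 rose with LPS and 4 fell in WT, 1 rose and 3 fell in SCR, and 2 rose and 2 fell in KD, with list medians of -0.25, -0.18 and -0.05 (log2). BTG2, an antiproliferative protein that binds the deadenylase, rose in each, by 1.95 ± 0.19 (WT), 1.39 ± 0.19 (SCR) and 1.66 ± 0.19 (KD) on the log2 scale. CNOT6, a catalytic subunit of the CCR4-NOT deadenylase, fell in each, by 0.44, 0.42 and 0.41. Of the 8 tested genes of decapping and 5' to 3' decay, 0 were called in WT and in SCR and 1, LSM14A, in KD, with medians of 0.04, 0.29 and 0.15. Among 15 genes of the RNA exosome and its Ski cofactors, EXOSC9 rose (0.68, 0.78 and 0.75) and EXOSC6 fell (by 0.60, 0.36 and 0.44) in all 3 conditions, and the list medians were -0.06, -0.11 and -0.10. Over the whole exosome list 1 rose and 1 fell in WT, 3 rose and 2 fell in SCR, and 2 rose and 2 fell in KD.

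Of 20 tested genes for other RNA-binding proteins that act on cytokine mRNAs, 3 rose and 1 fell in WT, 5 rose and 0 fell in SCR, and 4 rose and 2 fell in KD, with medians of -0.03, 0.08 and 0.09. ZC3H12D, a further member of the Regnase family, rose in all 3 (1.10 ± 0.24, 1.31 ± 0.25 and 1.37 ± 0.25). Of 18 genes for the kinases, phosphatases and other proteins that control the members, 0 rose and 2 fell in WT, 2 rose and 2 fell in SCR, and 0 rose and 3 fell in KD, with medians of 0.03, 0.01 and 0.02. IKBKB, a kinase of the NF-kB pathway, fell in each, by 0.40, 0.39 and 0.31. In KD against SCR, 0 genes of these lists were called in either state, with 0.066% of all genes called without LPS and 0% with LPS.

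The genes whose log2 CPM followed each member most closely over the 18 libraries were picked by Pearson's r among 10545 genes with a mean of at least 5 CPM. The 18 libraries share the 6 groups, so these values describe the group pattern. ENSG00000112096, which had no symbol here, followed ZC3H12A with r = 0.991, NFKB1, a subunit of NF-kB, with r = 0.988 and TNIP1, a partner of TNFAIP3, with r = 0.985. BIRC3 (r = 0.949), JUN (0.947) and CXCL8 (0.940) followed ZC3H12C. The closest gene to KHSRP was ILRUN (r = 0.974), to RC3H1 HSPA1B (0.946), to HNRNPD RANBP2 (0.940), to RC3H2 GBA2 (0.920), to ZFP36 DCTD (0.908), to ZFP36L1 HJURP (0.904) and to ZFP36L2 MS4A6A (0.855). ELAVL1 had no gene above 0.799 (KANK2).

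The share of counts from mitochondrial genes, one sign of RNA or cell state, ran from 3.19% to 3.37% in unstimulated WT, from 3.28% to 3.47% in SCR and from 3.87% to 4.86% in KD. With LPS it ran from 3.82% to 4.46% in WT, 3.72% to 5.20% in SCR and 4.28% to 5.15% in KD. The share was thus higher with LPS in WT and in SCR, and its ranges with and without LPS overlapped in KD. Without LPS the KD libraries lay above those of WT and SCR, and with LPS they overlapped both. Its part in the results for ZC3H12A, ZFP36 and KHSRP was not tested. Of the 8 monocyte markers, 0 rose with LPS in any condition, 1 fell in WT and in SCR, and 2 fell in KD. Of all genes tested, 7.01% rose and 7.26% fell in WT, 8.64% and 8.56% in SCR, and 6.41% and 5.05% in KD. The median log2 change of the markers was -0.20, -0.27 and -0.16 for WT, SCR and KD. CD14, the LPS co-receptor, fell in each (by 0.74, 1.53 and 1.07 on the log2 scale), and CD33, a myeloid surface receptor, fell by 0.50 in KD. Without LPS, 1 of the 8 was higher in SCR than in WT (CD14, log2 1.14), where 1.78% of all genes were higher. In KD, 2 were higher than in WT (CD14, 0.72, and CD68, a lysosomal protein, 0.95), where 5.85% of all genes were higher. ZFP36L1, ZC3H12A and ZC3H12C were higher in the same comparisons. The part of the markers in the results was not tested, and in these bulk libraries fewer cells of a type and less RNA per cell cannot be told apart.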

How the data were processed

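RNA from 18 THP-1 cultures was sequenced from the 3' end (QuantSeq). The authors aligned reads to GRCh37 with HISAT and counted those in the last 500 bases of each Ensembl gene with featureCounts. The deposited values are raw counts per gene. Strand and multi-mapping settings are not given in the sources used here. Symbols were matched for 55665 of 63677 genes through GENCODE v44lift37. A total of 34092 genes had counts, and filterByExpr kept 16678.

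The model had 1 mean for each group over the 18 libraries. It was fitted by edgeR 4.0.16 (TMM scaling, quasi-likelihood F test) under R 4.3.3, with Benjamini-Hochberg adjustment and a threshold of 0.05. The procedure was tried on simulated data in which every gene had the same dispersion setting and known changes were placed only in WT with LPS. Those data held no known change between conditions without LPS, and the differences in LPS response were not examined there. SE was taken as the absolute log2 value over the root of F. DESeq2 1.42.0, RLE scaling, no filter, a replicate block, only the groups compared and leaving out each library were the alternatives. Replicate numbers paired the libraries throughout for SCR and WT with LPS only, where deviations of same-numbered libraries correlated at 0.163 to 0.261. In unstimulated WT and KD these correlations ran from 0.0039 to 0.304, the highest for replicate 1. In the remaining pairs of groups none was above 0.0911. The members, gene lists and named genes were chosen with earlier results of these data known, so list counts are descriptions. Beside the 10 members, list genes were named for a small adjusted p, or for being called or not called in a comparison. One marker gene of another cell type is not reported here.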

Additional observations from a re-analysis of the deposited data

Results flagged for a closer look

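The LPS response of ZC3H12A differed between conditions by a test of the difference itself. It was smaller in SCR than in WT (log2 difference -0.92, adjusted p = 0.0329 by edgeR) and smaller in KD than in WT (-1.14, adjusted p = 0.00502). The call for SCR was kept in 3 of the 12 fits without 1 library (adjusted p up to 0.156), and that for KD in all 12. Its mean level was 17.4 CPM in WT, 26.1 in SCR and 24.3 in KD without LPS, and 213, 168 and 134 with LPS, and the 2 tests share the WT libraries. The other 9 genes were not called in these tests.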

How the results depend on the processing

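The number of the 10 genes called moved by more than 1.5 times in 6 comparisons. It moved less for LPS in WT (3, and 2 to 4 in other fits), LPS in SCR (4, and 3 to 4) and LPS in KD (3, and 2 to 4). For SCR against WT without LPS it was 3, and 5 with DESeq2, with no filter and with the replicate block (ZFP36 and KHSRP added), and 1 to 2 without 1 library. For SCR against WT with LPS it was 0, and 1 (ZFP36L1) with DESeq2, no filter and the replicate block. For KD against SCR with LPS it was 0, and 3 with no filter (ZFP36, ZFP36L1 and KHSRP), 1 (KHSRP) with the replicate block and 1 with only the groups compared. For KD against WT without LPS it was 5, and 0 with only the groups compared and 3 to 5 without 1 library. For KD against WT with LPS it was 4, and 1 to 3 without 1 library. The smaller SCR response of ZC3H12A gave 1 called gene, and 0 to 1 without 1 library. The causes of these shifts were not tested.

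Only 1 value changed sign, ZFP36 under LPS in SCR, 0.42 with all libraries and -0.052 to 0.65 without 1 library (-0.052 without SCR replicate 5), which passed the threshold in none of these fits. Of 506 alternative values of single genes, 428 kept their direction and their side of the threshold, 57 lost a call and 20 gained one. No paired analysis was possible within 1 condition because libraries with and without LPS share no number. With the replicate block within each state, the ZC3H12A response still differed from WT in SCR (-0.93, adjusted p = 0.00295 by edgeR) and in KD (-1.15, adjusted p = 0.000182). Outside SCR and WT with LPS, same-numbered libraries did not deviate together throughout, although replicate 1 of unstimulated WT and KD correlated at 0.304. Over all genes, KD against SCR with LPS gave 0 calls by edgeR, 167 by DESeq2 and 425 with no filter. ZFP36, at 69 to 540 counts per library, had the largest SE of the 10 genes.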
